A study of Mus musculus with 12 samples.

Results

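Microglia are the resident macrophages of the brain. The transcripts described here come from 37 genes that mark them or that they share with other macrophages, picked by symbol from a table of 41743 genes measured in mouse hippocampus. All 37 symbols were found, and 35 had a mean of at least 0.5 RPKM (a read count divided by gene length and library depth), the level needed to enter the test. The leukocyte phosphatase Ptprc and the transcription factor Ikzf1 lay under it.

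The animals were male C57Bl/6 mice aged 12 weeks, and each library is the whole hippocampus of a different mouse. Control animals received vehicle. Toxicant animals received, on weekdays for 2 weeks, subcutaneous injections of a mixture of 3 agents linked to Gulf War service: pyridostigmine bromide at 2.5 mg/kg, the organophosphate insecticide chlorpyrifos at 12.5 mg/kg and the repellent DEET at 7.5 mg/kg. Tissue was collected when the exposure ended, so later times were not measured, and the 3 agents were not given singly. Of 12 libraries, control 4 and control 5 hold identical values in all 41743 genes and were counted as 1 library, control 4-5, which leaves 5 control and 6 toxicant libraries.

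Microglia depend on signalling by the receptor Csf1r for survival and on TGF-beta for their mature identity. In healthy tissue they express a set of surface sensors, among them the fractalkine receptor Cx3cr1, the ADP receptor P2ry12 and the lipid-sensing receptor Trem2. Homeostatic genes such as Cx3cr1 and P2ry12 are known to be turned down when microglia become activated. The transcription factor PU.1, encoded by Spi1, binds purine-rich DNA with a GAGGAA core at many promoters and enhancers of myeloid cells, often beside factors of the IRF family such as Irf8.

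The promoters of 29 of the 37 genes could be matched in RefSeq (GRCm38.p6), with 35 start sites, each as a window from 250 bases before to 50 bases after the start. The letters GAGGAAG, a PU.1 core, were found on either strand in 13 of these 35 windows (37.1%), against 4477 of all 32851 promoter windows of the same length (13.6%). The letters GGAANNGAA, a PU.1 and IRF composite, were found in 2 of 35 (5.71%), in Ctss and Cd68, against 2708 of 32851 (8.24%). In Ctss the 2 matches overlap. The 60 bases shown come from 6 of the promoters with the PU.1 core, chosen because their genes span the range of the expression results, from Itgam and Ctss, with lower values in every toxicant library, to Tgfbr1, whose mean was higher. Sequences are 5′ to 3′ on the strand of the gene, and the capitals mark the PU.1 core, written as CTTCCTC where it lies on the other strand.

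Ctss: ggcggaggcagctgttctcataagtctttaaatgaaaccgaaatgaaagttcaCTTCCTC
Itgam: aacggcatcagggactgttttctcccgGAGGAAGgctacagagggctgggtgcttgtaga
P2ry13: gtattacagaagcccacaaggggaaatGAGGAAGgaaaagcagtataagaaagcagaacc
Trem2: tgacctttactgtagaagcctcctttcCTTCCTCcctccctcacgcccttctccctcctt
Inpp5d: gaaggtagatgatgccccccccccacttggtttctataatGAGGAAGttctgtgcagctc
Tgfbr1: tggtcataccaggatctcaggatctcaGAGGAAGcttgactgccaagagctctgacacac

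These windows are chr3:95526732-95526791 (plus strand) for Ctss, chr7:128062529-128062588 (plus) for Itgam, chr3:59210898-59210957 (minus) for P2ry13, chr17:48346333-48346392 (plus) for Trem2, chr1:87620252-87620311 (plus) for Inpp5d and chr4:47386094-47386153 (plus) for Tgfbr1. Counted from the RefSeq start, the first capital lies at -1 in Ctss, -84 in Itgam, -48 in P2ry13, -41 in Trem2, -20 in Inpp5d and -95 in Tgfbr1. The start used for Tgfbr1 lies inside its gene model, which runs on chromosome 4 from 47353222 to 47414931 (plus strand). A match is a run of letters and not a measured binding site. Of the 13 tested genes with the core, 10 had a log2 fold change below 0 and the median was -0.28, and of the 14 tested genes whose promoter window lacked it, 13 were below 0 and the median was -0.20.

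In toxicant hippocampi most of these genes had lower values than in controls, by a small amount, and no single gene passed the test over all genes. Fold changes are differences of the mean log2(RPKM + 0.5), toxicant minus control, and each gene was tested with limma, with Benjamini-Hochberg adjustment over the 13493 genes tested. Of the 35 genes tested, 31 (88.6%) had a log2 fold change below 0, against 9440 of all genes tested (70.0%). The median was -0.25 and the range -0.44 to 0.29, where the median over all genes tested was -0.11, and 26 of the 35 lay below that all-gene median. At a limma adjusted p under 0.05, 0 of the 35 genes and 0 of 13493 genes (0%) were lower, and 0 were higher. The smallest adjusted p in the whole table was 0.0715. At an unadjusted limma p under 0.05, 18 of the 35 genes (51.4%) were lower and 0 higher, where the whole table had 2288 genes (17.0%) lower and 449 (3.33%) higher. An exact rank-sum permutation test also called 0 genes, and 10 of the 35 had an unadjusted p under 0.05 by it, all of them lower, against 9.69% of all genes tested lower and 0.904% higher. The counts given by role and by list below are small, and are to be read against the 70.0% of all genes below 0 and the 17.0% lower at an unadjusted limma p under 0.05.

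In 3 of the 35 genes (8.57%), Itgam, Ctss and Gpr34, each of the 6 toxicant libraries was under the lowest control, as happened in 274 of all genes tested (2.03%). With Cd68 and Ly86, 5 genes (14.3%) had at least 5 of 6 toxicant libraries below the lowest control, against 781 of all genes tested (5.79%). Summed over the 37 genes, the level was 165 RPKM in control 1, 138 in control 2, 166 in control 3, 161 in control 4-5 and 157 in control 6. The toxicant libraries had 139, 129, 139, 113, 137 and 139 RPKM in the order of their numbers. Control 2 thus stood with the toxicant libraries, and toxicant 4 was the lowest of all and held the lowest value of 16 of the 35 genes. In bulk tissue, fewer microglia and less RNA per microglial cell cannot be told apart. Values were also lower outside this set, with 70.0% of all genes tested below 0, and the cause of the lower levels was not tested.

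**Figure D1:**
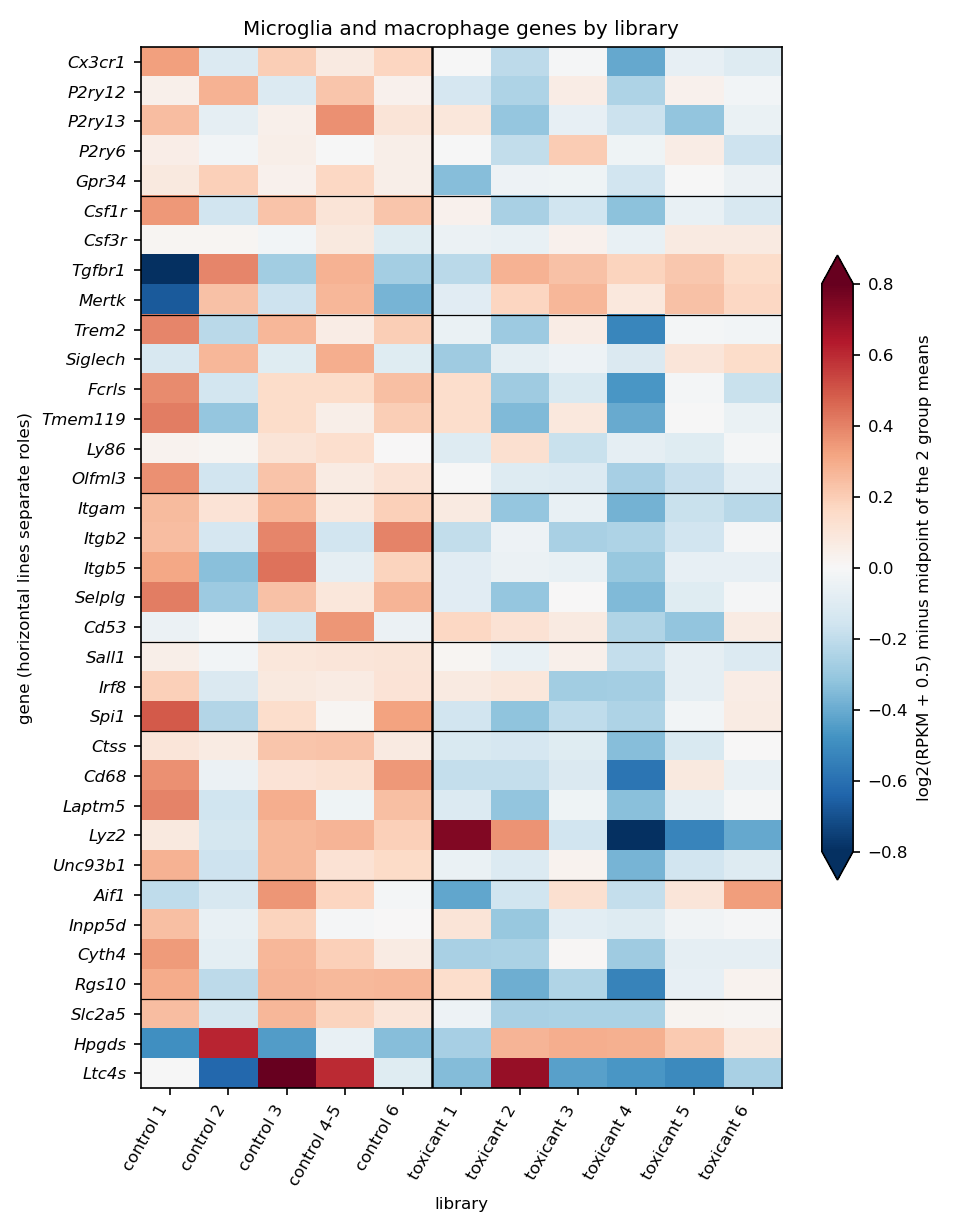
Deviation of the 35 tested genes (rows, separated by role) in each of 11 libraries (columns), as log2(RPKM + 0.5) minus the midpoint of the 2 group means, with red above and blue below it. Control libraries 1, 3, 4-5 and 6 are mostly red, control 2 is mostly blue (25 of 35 genes below the midpoint), and toxicant 4 is below it in 32 of 35 genes.

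Among the chemokine and purinergic receptors, which sense neuronal fractalkine and released nucleotides, 5 of 5 genes were lower, with a median log2 fold change of -0.20. Gpr34, a lysophosphatidylserine receptor, was at 4.21, 4.59, 4.07, 4.52 and 4.10 RPKM in controls 1, 2, 3, 4-5 and 6. In toxicant libraries its lowest, median and highest values were 3.03, 3.84 and 3.95 RPKM. The groups did not overlap, and control 2 was the highest of all libraries. Its means were 4.30 ± 0.240 RPKM (SD, n = 5) and 3.67 ± 0.347 RPKM (SD, n = 6), a log2 difference of -0.20 ± 0.08 (SE, limma adjusted p = 0.221). Gpr34 lies on chromosome X from 13632089 to 13640858 (GRCm38, GENCODE M21).

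P2ry12, the ADP receptor that guides microglial processes toward injury, was at 9.24, 10.96, 8.28, 10.5 and 9.18 RPKM in the controls, and at 7.48, 8.45 and 9.35 RPKM at the lowest, median and highest of the toxicant libraries. Its groups overlapped, and the log2 fold change was -0.19 ± 0.09 (SE, limma adjusted p = 0.254). Cx3cr1, the fractalkine receptor (ENSMUSG00000052336, chromosome 9 from 119901616 to 120069879), was at 9.43, 6.81, 8.55, 7.81 and 8.41 RPKM in the controls and at 5.45, 6.95 and 7.39 RPKM at the lowest, median and highest toxicant library. Apart from control 2, every control was above every toxicant library. The log2 fold change was -0.27 ± 0.10 (SE, limma adjusted p = 0.221). P2ry13, another ADP receptor and a neighbour of P2ry12 on chromosome 3, went from 2.97 ± 0.417 to 2.36 ± 0.317 RPKM (-0.28 ± 0.10), with overlapping groups. The UDP receptor P2ry6 was at 0.796 ± 0.0303 and 0.759 ± 0.130 RPKM (-0.05 ± 0.09), a difference within the spread between toxicant libraries.

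The receptors for growth factors, TGF-beta and TAM ligands did not share 1 direction: 1 of 4 was lower and their median was 0.14. Csf1r, the survival receptor for Csf1 and Il34, was at 13.1, 9.10, 12.02, 10.99 and 11.97 RPKM in the controls and at 8.003, 9.17 and 10.4 RPKM at the lowest, median and highest toxicant library. Control 2 alone lay inside the toxicant range. The means were 11.4 ± 1.499 and 9.16 ± 0.880 RPKM, a log2 difference of -0.30 ± 0.10 (SE, limma adjusted p = 0.207). Csf1r shares 15.1% of its exon bases with Hmgxb3 on the opposite strand, and without strand in the counting, which is not stated, their reads there cannot be told apart.

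Tgfbr1, the type I TGF-beta receptor, spread more among controls than between the groups, at 1.32, 3.71, 2.16, 3.41 and 2.16 RPKM. Its toxicant values ran from 2.27 through a median of 3.19 to 3.41 RPKM (0.28 ± 0.19). Mertk, a TAM receptor for phagocytosis of apoptotic cells that astrocytes also express, was at 3.43, 6.85, 5.07, 7.01 and 4.33 RPKM in the controls and at 5.37, 6.53 and 7.02 RPKM at the lowest, median and highest toxicant library (0.28 ± 0.15, limma adjusted p = 0.273). For both genes controls 2 and 4-5 were the high controls and control 1 the lowest. Without control 1 the log2 fold change was 0.11 for Tgfbr1 and 0.15 for Mertk, and without control 2 it was 0.41 and 0.37. Csf3r, the receptor for granulocyte colony-stimulating factor, was nearly equal, at 0.896 ± 0.0630 and 0.899 ± 0.0627 RPKM.

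All 6 immunoreceptors and surface markers were lower, with a median of -0.22. Tmem119, a membrane protein that separates microglia from other macrophages, was at 10.01, 5.90, 8.28, 7.70 and 8.58 RPKM in controls and at 5.48, 7.28 and 8.23 RPKM at the lowest, median and highest toxicant library. Controls 1, 3 and 6 were above every toxicant library and the other 2 among them, and the log2 fold change was -0.20 ± 0.14 (SE, limma adjusted p = 0.341), or -0.12 without control 1 and -0.30 without control 2. Trem2, the lipid-sensing receptor that signals through Tyrobp, was at 2.51, 1.48, 2.25, 1.89 and 2.13 RPKM in controls and at 1.10, 1.73 and 1.89 RPKM at the lowest, median and highest toxicant library (-0.28 ± 0.13). Fcrls, an Fc receptor-like protein of microglia, was at 6.27 ± 0.873 and 4.98 ± 0.787 RPKM (-0.31 ± 0.12), and Olfml3, a secreted protein of microglia, at 2.30 ± 0.367 and 1.84 ± 0.143 RPKM (-0.25 ± 0.09). In Trem2, Fcrls and Olfml3 the lowest control was again control 2. Siglech, a sialic acid-binding lectin, had a log2 fold change of -0.09 ± 0.11 and overlapped throughout. Ly86, a partner of the Toll-like protein Cd180, was at 1.51 to 1.70 RPKM in controls and below 1.51 in 5 of 6 toxicant libraries, toxicant 2 being at 1.69 RPKM (-0.11 ± 0.07).

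Among integrins and leukocyte surface proteins 5 of 5 tested genes were lower, with a median of -0.29. Itgam, the alpha chain of complement receptor 3 (ENSMUSG00000030786, chromosome 7 from 128062640 to 128118491), was at 3.32, 2.95, 3.35, 2.89 and 3.15 RPKM in controls. The lowest, median and highest toxicant values were 1.97, 2.29 and 2.86 RPKM, so the groups did not overlap, although toxicant 1 lay just under control 4-5. With means of 3.13 ± 0.207 RPKM (SD, n = 5) and 2.35 ± 0.330 RPKM (SD, n = 6), Itgam had the smallest p of the 35 genes: a log2 difference of -0.36 ± 0.09 (SE), with an unadjusted limma p of 0.00127 and an adjusted p of 0.170. It shares 68.7% of its exon bases with the same-strand gene model Gm49368, which was at 0.00121 RPKM.

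Itgb2, the beta chain that pairs with Itgam, was at 1.28, 0.865, 1.47, 0.852 and 1.48 RPKM in controls and at 0.754, 0.829 and 0.993 RPKM at the lowest, median and highest toxicant library (-0.30 ± 0.12, limma adjusted p = 0.225). Controls 2 and 4-5 lay among the toxicant libraries and the other 3 controls above all of them. Selplg, the selectin ligand PSGL-1, was at 5.50 ± 1.03 and 4.38 ± 0.502 RPKM (-0.29 ± 0.12), and Itgb5, a vitronectin-binding integrin chain, at 10.6 ± 2.27 and 8.97 ± 0.607 RPKM (-0.21 ± 0.12). For both, control 2 was the lowest control, and the value of Itgb5 was -0.32 without it and -0.13 without control 3. The tetraspanin Cd53 was at 2.54 ± 0.437 and 2.45 ± 0.394 RPKM, within the spread between libraries. Ptprc (CD45), a defining leukocyte gene, was at 0.0796 ± 0.0511 and 0.0888 ± 0.0308 RPKM. Its gene model is 18313 exon bases long, and the value rests on a mean of 41.9 reads per library, so that its RPKM is low while reads were present.

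**Figure D2:**
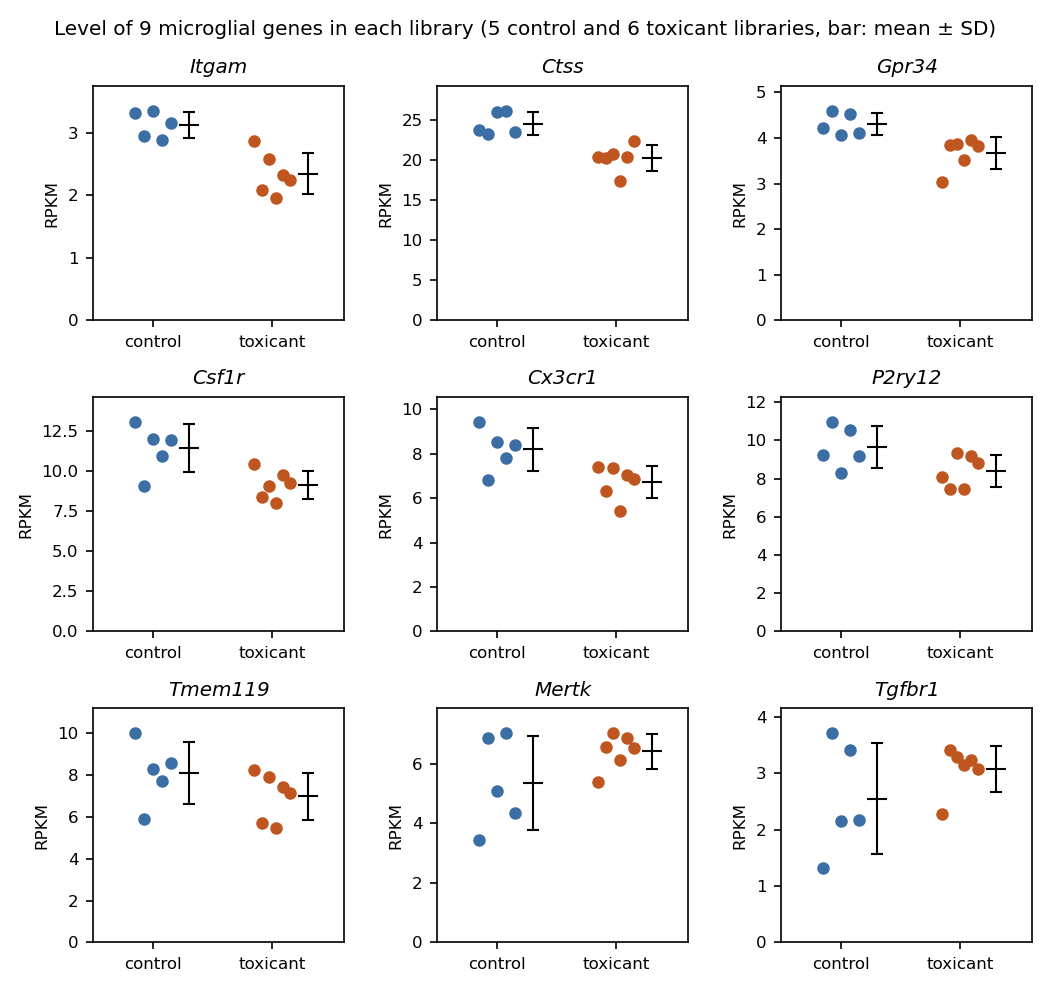
RPKM (vertical axes, from 0) of 9 of the genes in each control and toxicant library, with the mean and SD beside the points. Itgam, Ctss and Gpr34 have no overlap between the groups, the 4 other genes with lower means overlap in part or through control 2 alone, and Mertk and Tgfbr1 have higher toxicant means inside a wide control range.

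The transcription factors of microglial identity had small differences, with a median of -0.13 and 3 of 3 tested genes lower. Sall1, which keeps microglia in their homeostatic state, was at 2.93 ± 0.119 and 2.64 ± 0.184 RPKM (-0.12 ± 0.06, limma adjusted p = 0.263). Spi1, encoding PU.1, was at 1.52, 0.726, 1.09, 0.952 and 1.30 RPKM in controls and at 0.653, 0.772 and 1.01 RPKM at the lowest, median and highest toxicant library (-0.29 ± 0.13, limma adjusted p = 0.237). Controls 1, 3 and 6 were above every toxicant library, and controls 2 and 4-5 among them. Irf8 was at 0.629 ± 0.0847 and 0.534 ± 0.119 RPKM (-0.13 ± 0.10). Ikzf1 (Ikaros) was at 0.497 ± 0.0650 and 0.464 ± 0.0662 RPKM and was not tested.

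All 5 lysosomal and endosomal genes were lower, with a median of -0.27 and 4 of them at an unadjusted limma p under 0.05 (70.0% and 17.0% over all genes). Ctss, cathepsin S, the lysosomal protease that trims the invariant chain (ENSMUSG00000038642, chromosome 3 from 95526786 to 95556403), was at 23.8, 23.3, 26.0, 26.1 and 23.4 RPKM in controls. Toxicant libraries were at 17.4, 20.4 and 22.3 RPKM at the lowest, median and highest, with no overlap. The means were 24.5 ± 1.42 and 20.3 ± 1.58 RPKM, and the log2 fold change was -0.27 ± 0.08 (SE, limma adjusted p = 0.197).

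Cd68, a lysosomal glycoprotein of macrophages, was at 3.82, 2.75, 3.12, 3.16 and 3.77 RPKM in controls and at 1.74, 2.52 and 3.04 RPKM at the lowest, median and highest toxicant library. The single overlap was toxicant 5 above control 2 (-0.36 ± 0.12, limma adjusted p = 0.207). Laptm5, a lysosomal membrane protein of blood-lineage cells, was at 8.60 ± 1.42 and 6.87 ± 0.699 RPKM (-0.29 ± 0.11), and Unc93b1, which carries Toll-like receptors to endosomes, at 3.58 ± 0.478 and 2.92 ± 0.309 RPKM (-0.25 ± 0.10). Lyz2, a lysozyme of macrophages, varied most widely: controls ran from 2.23 to 3.14 RPKM, while toxicant 1 was at 4.53, toxicant 2 at 3.36 and toxicant 4 at 1.24 RPKM. Toxicant libraries thus lay on both sides of the controls, and its log2 difference of -0.26 ± 0.23 was within their spread (-0.44 without toxicant 1 and -0.13 without toxicant 4).

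Intracellular signalling genes were lower in 4 of 4 cases, with a median of -0.23. Cyth4, a guanine nucleotide exchange factor for ARF proteins, was at 2.44, 1.70, 2.29, 2.15 and 1.93 RPKM in controls and at 1.41, 1.58 and 1.83 RPKM at the lowest, median and highest toxicant library (-0.31 ± 0.09, limma adjusted p = 0.203). Only control 2 overlapped with them. Rgs10, which limits G protein signalling, was at 9.06, 6.25, 8.92, 8.82 and 8.85 RPKM in controls and at 4.89, 6.53 and 8.11 RPKM at the lowest, median and highest toxicant library (-0.35 ± 0.13, limma adjusted p = 0.223). The 4 controls other than control 2 stood close together and above all toxicant libraries. Aif1 (IBA1), the calcium-binding protein by which microglia are stained, was at 1.75 ± 0.363 and 1.65 ± 0.400 RPKM, and Inpp5d (SHIP1), a lipid phosphatase downstream of immunoreceptors, at 1.08 ± 0.145 and 0.928 ± 0.131 RPKM (-0.14 ± 0.09). Both genes overlapped between the groups and neither passed the limma test.

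Of the transport and lipid mediator genes, Slc2a5, a fructose transporter, was at 1.01 ± 0.164 and 0.763 ± 0.123 RPKM (-0.26 ± 0.10). Ltc4s, leukotriene C4 synthase, had the lowest log2 fold change and also the widest error of the 35 genes, at -0.44 ± 0.30 (SE, limma adjusted p = 0.341). It rests on control 3 at 5.49 and control 4-5 at 3.37 RPKM, with the other controls at 1.16 to 2.05 RPKM. Toxicant 2 was at 3.65 RPKM and the other toxicant libraries at 1.30 to 1.63 RPKM. The log2 fold change was -0.19 without control 3 and -0.65 without control 2. Hpgds, prostaglandin D synthase, was at 0.264, 1.14, 0.287, 0.527 and 0.348 RPKM in controls and at 0.391, 0.768 and 0.810 RPKM at the lowest, median and highest toxicant library (0.29 ± 0.19, limma adjusted p = 0.320). Control 2 had the highest value of all libraries, and without it the log2 fold change was 0.48.

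The share of reads that lay on annotated genes moved with these levels. It was 89.5, 78.4, 88.4, 83.1 and 87.4% in controls 1, 2, 3, 4-5 and 6 and 76.8 to 83.8% in the toxicant libraries, and toxicant 4 had both the smallest share and the lowest summed level. With that share as a covariate in limma, 31 of 35 genes were below 0 (61.2% of all genes) and their median was -0.09 (all genes -0.03). At an unadjusted limma p under 0.05, 6 of the 35 were then lower and 0 higher. Over all 13493 genes that fit had 1232 lower and 586 higher. Of the 31 genes below 0 without the covariate, 29 were below 0 with it, while Tmem119 and Itgb5 were above 0 and Tgfbr1 and Hpgds, above 0 without it, were below. Leaving out control 2 as well gave -0.11 (all genes -0.04), with 29 of 35 below 0 (61.5% of all genes). In that fit 1 of the 35 was lower and 0 higher at an unadjusted limma p under 0.05. Over all 13468 genes 720 were lower and 183 higher. Libraries of like share can be set side by side without a model. Control 4-5 (83.1%) was above both toxicant 1 (83.8%) and toxicant 6 (83.1%) in 24 of 35 genes and below both in 0, with a median log2 difference of -0.15, toxicant minus control. Over all genes tested the same 3 libraries gave 43.9% above both and 24.3% below both, with a median of -0.05. Control 2 (78.4%) was above toxicant 2 (78.7%) in 26 genes and below it in 9, with a median of -0.10, against 58.0% above, 41.9% below and a median of -0.03 over all genes tested. These are 5 libraries, and no test was made. Whether the share of reads on genes accounts for the lower levels was not tested.

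**Figure D3:**
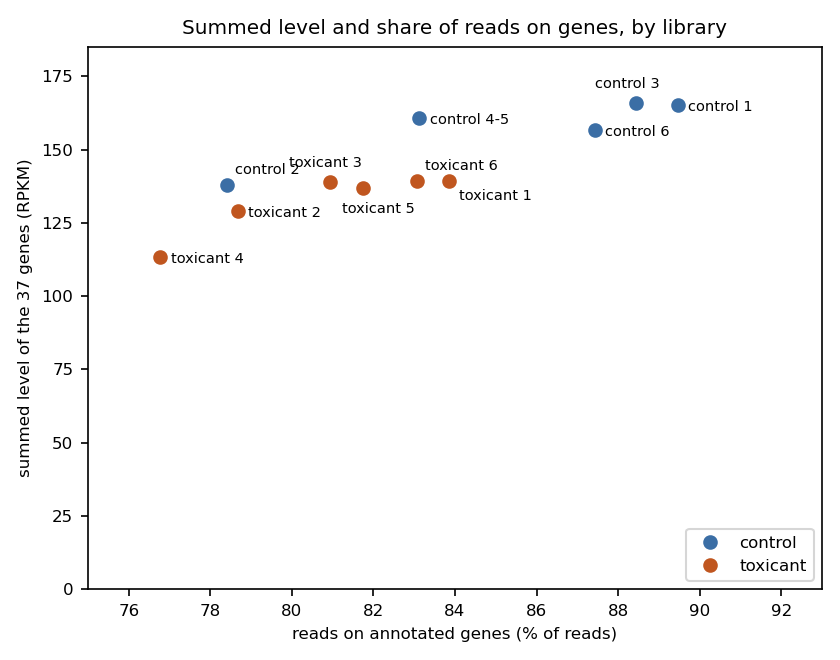
Summed level of the 37 genes in RPKM (vertical axis, from 0) against the share of reads on annotated genes (horizontal axis, %), 1 point per library, control in blue and toxicant in orange. Control 2, at 78.4%, has 138 RPKM and stands with the toxicant libraries, and at about 83% control 4-5 has 161 RPKM against 139 RPKM in toxicant 1 and toxicant 6.

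Genes also differed by their base composition. Over all genes tested, those with less than 42% GC in their exons (916 genes from 30% up) had a median log2 fold change of 0.26, those from 52% to 57% (3754 genes) one of -0.18. The 3 genes of the set under 42% GC, P2ry12, Gpr34 and Cd53, were all below 0 and had a median of -0.19, against that 0.26. Hpgds, just outside that band at 42.6% GC, was at 0.29. With the GC trend of each library removed, the log2 fold change of Gpr34 (36.8% GC) was -0.51 and that of P2ry12 (40.6% GC) -0.43. Among the 16 genes with 52% to 57% GC the median was -0.28, and 13 lay below the band's -0.18. The 9 genes with 47% to 52% GC, among them Cx3cr1, Fcrls and Itgam, were near their band. Their median was -0.12 against -0.11, and 5 lay below it. From 42% to 47% GC the 4 genes had -0.19 against 0.07, with 3 below. From 57% to 62% GC the 3 genes had -0.20 against -0.17, with 2 below. Over the 35 genes the median after removal of the trend was -0.10 (all genes 0.00398), with 25 below 0 (48.8% of all genes). At an unadjusted limma p under 0.05, 7 of the 35 were then lower and 1 higher, against 936 and 1036 of 13488 genes. Median-ratio scaling, which moved the median over all genes to 0.00135, gave -0.14, with 27 below 0 (49.7% of all genes). There 6 of the 35 were lower and 1 higher at an unadjusted limma p under 0.05, against 694 and 1105 of 13493 genes.

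The fold changes of single genes were therefore not equally steady. Over all fits tried, 21 of the 35 genes had a log2 fold change below 0 in each, among them Cx3cr1, P2ry12, P2ry13, Gpr34, Csf1r, Fcrls, Itgam, Ctss and Cd68. Some of these fits share their log2 fold changes by design, and the same count over all genes was not made. For Itgam the value was -0.24 with the share covariate, -0.20 without the GC trend and -0.25 after median-ratio scaling, and for Ctss it was -0.22, -0.28 and -0.14. With the share covariate and without control 2, Itgam was at -0.12, Ctss at -0.20 and Gpr34 at -0.27. Csf1r had -0.11, -0.11 and -0.17, and Cx3cr1 had -0.09, -0.14 and -0.14. Trem2 was at -0.03 with the share covariate and Tmem119 at 0.08. For Mertk it was 0.03 and for Tgfbr1 -0.08 with the share covariate, and for both 0.36 with the GC trend removed.

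**Figure D4:**
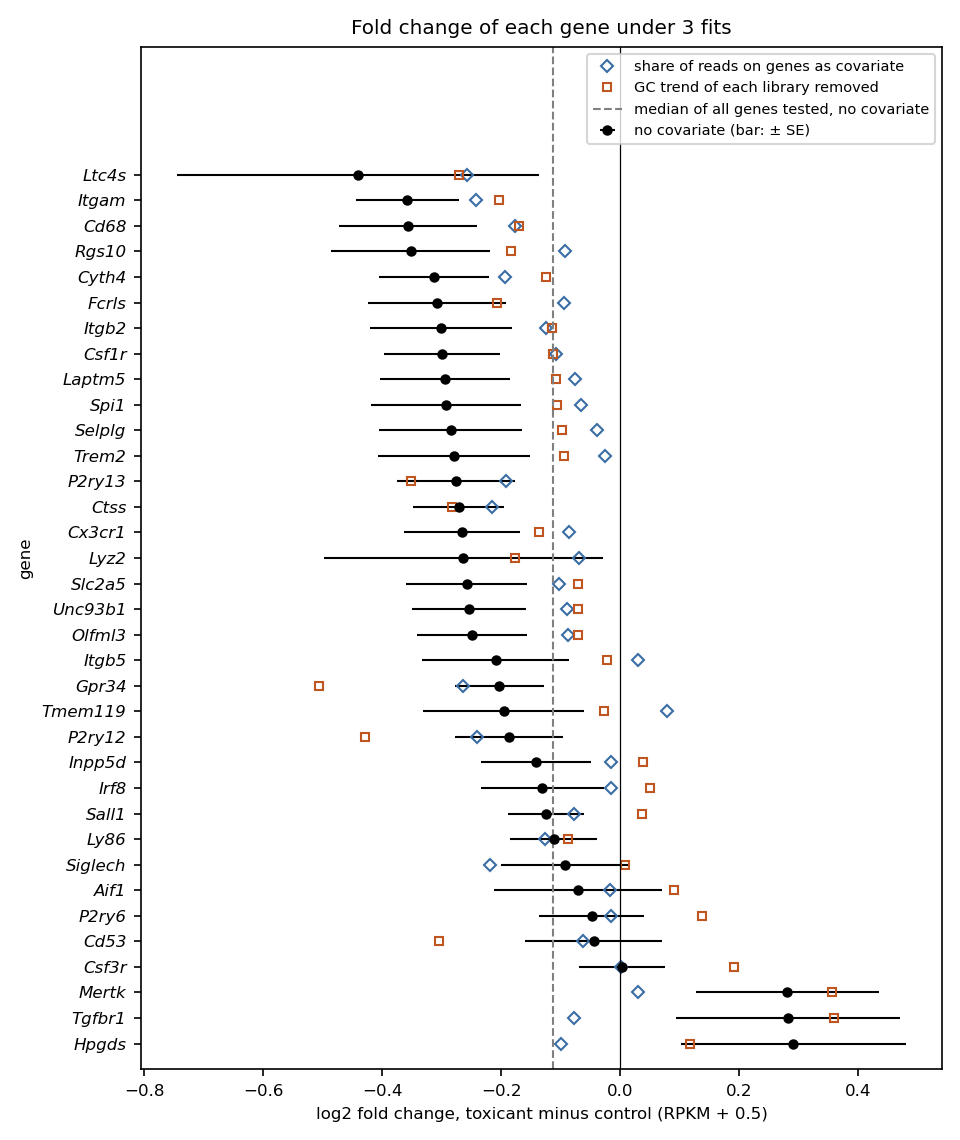
Log2 fold change (toxicant minus control, horizontal axis) of each tested gene (vertical axis), as fitted without a covariate (black, with SE), with the share of reads on genes added to the model (blue) and with the GC trend of each library removed (orange), and the median of all genes as a dashed line at -0.11. Most blue points lie nearer to 0 than the black ones, while those of Gpr34, P2ry12 and Ctss stay near or below them.

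Leaving out control 2 changed the calls, and leaving out any other single library gave 0 calls among the 35 genes. Without control 2, 18 of the 35 genes were lower and 1 was higher at a limma adjusted p under 0.05, where the table had 3779 of 13468 genes (28.1%) lower and 1153 (8.56%) higher. The 18 were Cx3cr1, P2ry13, Csf1r, Trem2, Fcrls, Olfml3, Itgam, Itgb2, Itgb5, Selplg, Spi1, Ctss, Cd68, Laptm5, Unc93b1, Cyth4, Rgs10 and Slc2a5, and the gene that was higher was Hpgds. The median of the 35 genes was then -0.32 against -0.16 for all genes. Limma with sample weights, which gives less weight to libraries far from their group, called 23 of the 35 lower and 3 (Tgfbr1, Mertk and Hpgds) higher, against 6690 of all genes (49.6%) lower and 2863 (21.2%) higher. Control 2 was the lowest control in 23 of the 35 genes, all of which had a log2 fold change below 0 (median -0.27, median GC 53.9%). It was the highest control in P2ry12, Gpr34, Tgfbr1 and Hpgds (median GC 41.6%).

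Other genes of the same cells and of their signals were taken from lists. Of 34 further homeostatic microglial genes, 26 were tested, 23 were below 0 and 19 below the all-gene median, with a median of -0.21 (-0.05 with the share covariate), and 0 passed. Fcer1g, the common gamma chain of Fc receptors, had the smallest adjusted p among them: it was at 4.80 ± 0.619 and 3.18 ± 0.257 RPKM, a log2 difference of -0.52 ± 0.09 (SE, limma adjusted p = 0.0729), with no overlap between groups. The tetraspanin Cd37 had -0.38 ± 0.10 (limma adjusted p = 0.172).

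Ligands and partners of these receptors were tested in 22 of 28 cases, 19 below 0 with a median of -0.18 (-0.07 with the share covariate). Tgfbr2, with which Tgfbr1 forms the TGF-beta receptor, was at 1.64 ± 0.243 and 1.13 ± 0.140 RPKM (-0.38 ± 0.10, limma adjusted p = 0.172). The mean of Tgfbr1 was in the opposite direction (0.28 ± 0.19), but its log2 fold change was -0.08 with the share covariate. Tyrobp, the signalling adaptor of Trem2, was at 8.94 ± 1.39 and 6.94 ± 1.18 RPKM (-0.34 ± 0.13), and Csf1, a ligand of Csf1r, at 3.68 ± 0.677 and 2.89 ± 0.240 RPKM (-0.29 ± 0.11). None of these 22 genes passed the limma test over all genes.

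In the list of activated and disease-associated microglial genes 13 of 25 were tested and 10 were below 0, a share near the 70.0% of all genes. The median was -0.29 (-0.05 with the share covariate), and 0 passed. B2m, the light chain of class I histocompatibility proteins, was at 59.9 ± 4.51 and 44.2 ± 4.96 RPKM (-0.44 ± 0.09, limma adjusted p = 0.153), the tetraspanin Cd9 had -0.50 ± 0.13 and the protease Ctsl -0.25 ± 0.08. The 3 above 0 included Spp1 (osteopontin), at 1.01 ± 0.478 and 1.26 ± 0.581 RPKM (0.21 ± 0.25), and the lipase Lpl (0.11 ± 0.10), both named after their values were seen. Among the genes of this list under the filter, 3 were near 0 in both groups: Itgax at 0.0287 ± 0.0145 and 0.0186 ± 0.00497 RPKM, Clec7a at 0.0498 ± 0.0449 and 0.0330 ± 0.0365 RPKM and Cst7 at 0.0731 ± 0.107 and 0.0878 ± 0.101 RPKM. Ptprc was also low, at 0.0796 and 0.0888 RPKM, but on a gene model of 18313 exon bases, and is no measure for these 3 genes. Whether that state was absent was not tested. Of 17 proinflammatory genes only Myd88 (-0.33 ± 0.11), Ptgs2 (0.13 ± 0.13) and Ncf1 (-0.12 ± 0.14) were above the filter, and Il1b, at 0.106 ± 0.0491 and 0.124 ± 0.0565 RPKM, and Il6, at 0.0207 ± 0.0198 and 0.0296 ± 0.0254 RPKM, were too low to test.

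Markers of other cells the tissue could hold were read the same way. Border-associated macrophage markers summed to 2.31 to 3.32 RPKM in controls and 2.05 to 3.43 RPKM in toxicant libraries over 14 genes. Of these only Stab1 (0.03 ± 0.08) and Dab2 (-0.01 ± 0.18) could be tested, and the defining marker Mrc1 was at 0.106 ± 0.0352 and 0.104 ± 0.0503 RPKM. The 22 blood neutrophil, monocyte and lymphocyte markers summed to 0.382 to 1.36 RPKM in controls and 0.526 to 0.842 RPKM in toxicant libraries, with Ly6g at 0 in all. The defining microglial genes Tmem119, P2ry12, Sall1 and Siglech were present in every library.

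Lower values were not limited to microglial genes. Oligodendrocyte markers had a median of -0.50 (10 genes), red cell markers one of -0.45 (4 tested), endothelial markers -0.27 (10), neuron markers -0.15 (12) and astrocyte markers -0.14 (10). With the share covariate these medians were -0.33, -0.32, -0.29, 0.03 and -0.06. Summed red cell markers were at 97.1 to 143 RPKM in controls and 70.9 to 101.6 RPKM in toxicant libraries. Choroid plexus markers varied from 16.6 to 2891 RPKM in sum among controls and from 14.96 to 1805 RPKM among toxicant libraries, and with a choroid plexus score as a covariate the median of the 35 microglial and macrophage genes was -0.22. Their part in the result was otherwise not tested.

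**Figure D5:**
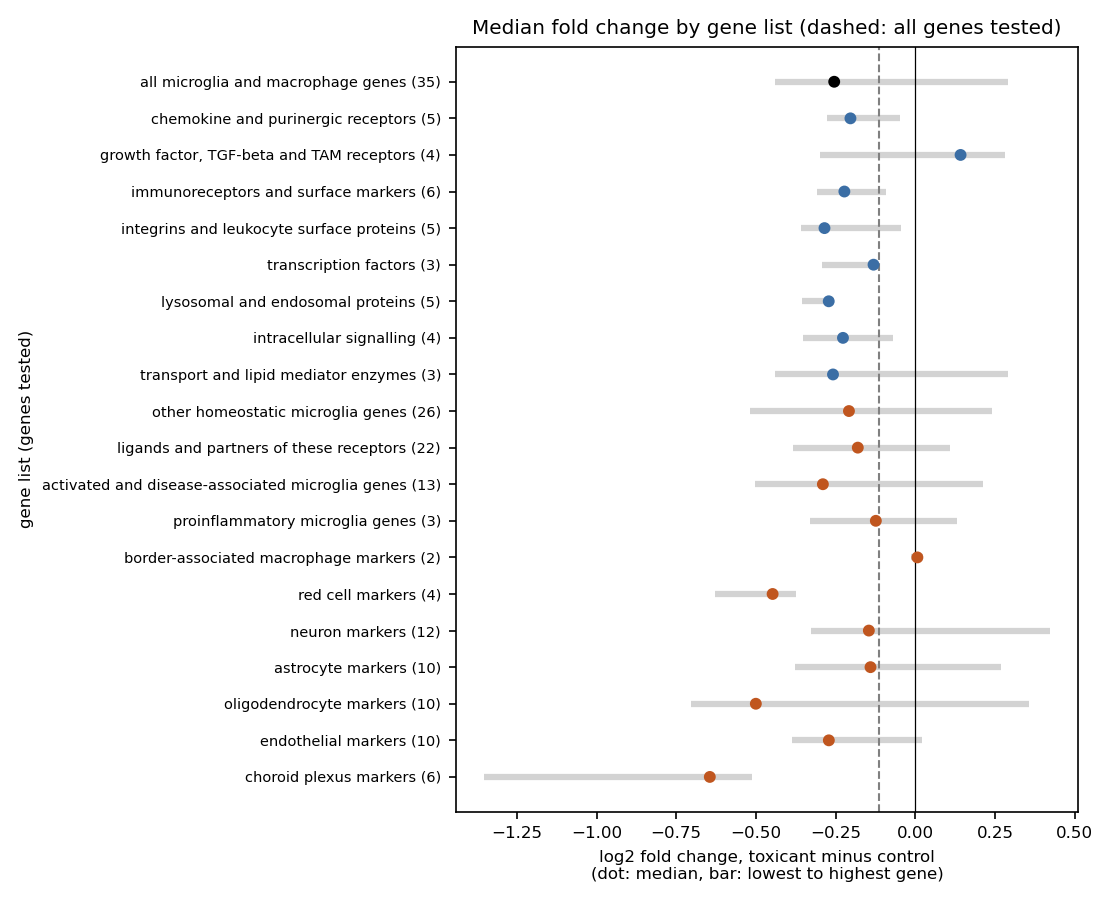
Median log2 fold change (dot, toxicant minus control, horizontal axis) and range from the lowest to the highest gene (bar) of each gene list (vertical axis, with the number of genes tested), for the microglia and macrophage genes as a whole (black), their roles (blue) and other lists (orange). The dashed line is the median of all genes tested, -0.11, and of the roles only the growth factor, TGF-beta and TAM receptors have a median above it.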

How the data were processed

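RNA-seq values of 12 hippocampal samples were used. Per the labels' protocols, RNA was extracted with TRIzol, polyadenylated RNA was selected, and NEBNext Ultra libraries were sequenced as single reads on a NextSeq 500. Per the file headers, the authors deposited 1 table of RPKM values for 41743 genes in 12 columns. The sources used here do not name the aligner, counter, build or strandedness. Columns were matched to samples by the code in each sample's description. Control 4 and control 5 hold identical values, differ by less than sampling noise and were counted as 1 sample.

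The genes and lists were chosen with earlier results of these data known, so no p over them alone is given. All 37 genes are named by rule, and of each other list the 3 genes with the smallest p, besides genes that check a cell type. A gene that this rule takes is not reported here.

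Deposited RPKM values were put on the scale log2(RPKM + 0.5), on which fold changes of weakly expressed genes come out too small. The 13493 genes whose mean over 11 libraries reached 0.5 RPKM entered limma 3.58.1 (R 4.3.3, eBayes with trend, two-sided, no covariate), with Benjamini-Hochberg adjustment and a threshold of 0.05.

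Values times GENCODE M21 (GRCm38) exon lengths were whole multiples of 1 read within 0.05 reads for 98.1% to 98.4% of genes, which gave 21.5 M to 34.9 M reads per library, 76.8% to 89.5% of them on genes (mean 85.4% ± 4.58 SD over the 5 controls, 80.8% ± 2.68 SD over the 6 toxicant libraries). Of the IDs, 41675 were found in M21. The genes described had 41.9 to 1596 reads per library on average. Gene positions come from that annotation by ID. Promoters were taken from RefSeq (GRCm38.p6). Alternatives were other pseudocounts (0.1 and 1), filters, scalings, variance models, sample weights, a replicate block, covariates, removal of the GC trend, voom on the recovered reads, an exact rank-sum permutation test, the 12 libraries as deposited and leaving out each library.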

Additional observations from a re-analysis of the deposited data

Results flagged for a closer look

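Each named gene was screened in each group for a library whose gap to the nearest other library was large beside the group's whole range (Dixon's 95% critical value). Of 144 groups screened, 17 had such a library, where chance gives about 1 in 20, or 7.2.

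Among the microglia and macrophage genes there were 6. Tgfbr1 was low in toxicant 1, at 2.27 RPKM with the next library at 3.07. Itgb5 was low in toxicant 4, at 7.75 RPKM against 9.06 or more in the others. Control 4-5 was high for Cd53, at 3.30 RPKM, and for Ikzf1, at 0.610 RPKM. Rgs10 was low in control 2, at 6.25 RPKM where the other controls were at 8.82 or more. Ltc4s was high in toxicant 2, at 3.65 RPKM.

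Among the other genes, Csf1 was low in control 2 (2.525 RPKM), Myd88 low in toxicant 5 (0.782 RPKM), Dab2 high in toxicant 2 (1.205 RPKM), Gad2 high in toxicant 2 (19.96 RPKM) and Pecam1 low in control 6 (1.47 RPKM). The choroid plexus genes were high in the same 2 libraries: Kl at 11.1 RPKM in control 3 and 9.23 RPKM in toxicant 2, Clic6 at 15.3 and 10.5 RPKM, and Ttr at 2836 and 1764 RPKM.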

How the results depend on the processing

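The cause of each change below was not tested. Across the table, 1 gene was higher with a pseudocount of 0.1 and 1 at an adjusted p under 0.1; 10 were lower at an adjusted p under 0.1 and 9 with the 12 libraries as deposited. Sample weights called 2863 higher and 6690 lower, and leaving out 1 library gave 0 to 1153 higher and 0 to 3779 lower. Of the 35 genes tested, sample weights called 23 lower and leaving out 1 library 0 to 18, all of them without control 2. Their median (-0.25) was -0.14 after median-ratio scaling, -0.088 with the share of gene reads as a covariate (the share covariate), -0.098 with the GC trend removed, and -0.11 with the share covariate and without control 2, a fit chosen after seeing the data. Leaving out 1 library in turn gave -0.32 to -0.20, with 30 to 32 of 35 below 0. Of 973 values of the 35 genes under alternatives, 894 kept their sign and side of the threshold, 45 passed it and 34 had the opposite sign. These values include the fits without a mean-variance trend, with the robust variance model and by rank-sum. Those keep the log2 fold change of the test described above, so their sign could not differ. With the floor of 0.004329 on the rank-sum p, its side of the threshold is no separate check either. With the replicate number as a block, 0 genes were called, the median was -0.24 and 31 of 35 were below 0. Toxicant 5 was the only library in its block, since control 4-5 entered under number 4. The fold changes of that fit are therefore those without toxicant 5, and it is no separate check of them. Deviations of equally numbered libraries correlated at 0.62, 0.28, -0.30, 0.32 and 0.27, and 1 of 5 correlated best with its own number, so the numbers do not pair the samples.

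The sign was opposite to that of the test described above in these fits. After median-ratio scaling it was so for P2ry6 (0.032), Siglech (0.013), Cd53 (0.065), Aif1 (0.030) and Dab2 (0.062), and with quantile normalization for Csf3r (-0.010) and the astrocyte gene Slc1a3 (0.022 against -0.14). With sample weights these were Siglech (0.10), Aif1 (0.044) and Ncf1 (0.013). With the replicate block, as without toxicant 5, they were Csf3r (-0.011), Cd53 (0.014) and Dab2 (0.040). With the GC trend removed they were P2ry6 (0.14), Siglech (0.0084), Sall1 (0.036), Irf8 (0.049), Aif1 (0.090), Inpp5d (0.038), Ptgs2 (-0.041) and Ncf1 (0.063). With the share covariate they were Tgfbr1 (-0.078), Tmem119 (0.079), Itgb5 (0.030), Hpgds (-0.099), Ptgs2 (-0.071) and Ncf1 (0.083). The share covariate without control 2 gave Tgfbr1 (-0.11), Trem2 (0.015), Tmem119 (0.098), Inpp5d (0.057), Ptgs2 (-0.056), Ncf1 (0.035) and Stab1 (-0.0049). The choroid plexus score gave Csf3r (-0.0042) and Dab2 (0.10), and the 12 libraries gave Csf3r (-0.010). Leaving out 1 library gave ranges that cross 0 for Csf3r (-0.021 to 0.024), Cd53 (-0.087 to 0.038), Aif1 (-0.14 to 0.0087) and Dab2 (-0.13 to 0.11). Depth limited P2ry6, Ptprc, Spi1, Aif1 and Ltc4s most, with means of 41.9 to 70.2 reads per library.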
